A study of Mus musculus with 16 samples.

Results

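The genes described here are 36 genes of protein folding and stress signalling in the endoplasmic reticulum (ER), of 18194 genes measured in mouse liver. They were taken by name from the platform annotation, and a gene with several probe sets is represented by the brightest of them. All 36 were measured: 18 folding enzymes and chaperones, 6 genes of ER-associated degradation (ERAD), 3 stress sensors with the factor Xbp1, and 8 genes of the Atf4 arm. Ero1l and Ero1lb appear under their present symbols, Ero1a and Ero1b. The livers came from 16 male KK-Ay mice, an obese strain with the yellow agouti allele that develops type 2 diabetes, aged 11 weeks according to the labels. Of these, 8 mice ate a normal AIN-93G-based diet and 8 ate that diet with 0.1% of a maple syrup extract (MSE). Both groups were pair-fed for 43 days, and the liver was collected after 16 h without food. All mice carry the KK-Ay background and were fasted, and no lean or unfasted group was compared here. The comparison asks whether the extract altered these genes, and whether the folding enzymes and the Atf4 arm behaved alike.

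The ER folds secreted and membrane proteins, a large task in a hepatocyte, which exports most plasma proteins. When unfolded proteins accumulate, the sensors Ire1 (Ern1), Atf6 and Perk (Eif2ak3) signal from the ER membrane. Ire1 splices Xbp1 mRNA, and spliced Xbp1 and cleaved Atf6 induce chaperones, disulfide enzymes and ERAD genes. Perk phosphorylates eIF2 alpha, which favours translation of Atf4, and Atf4 induces genes of amino acid supply, such as Asns, and of stress-induced death, such as Ddit3 (Chop). Because other kinases also phosphorylate eIF2 alpha, for instance in amino acid shortage, the Atf4 arm can be engaged without the folding genes.

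Promoter sequences are shown because the folding genes and the Atf4 arm carry different known elements. Promoter windows, 250 bases before to 50 bases after the annotated start, were taken from RefSeq (build GRCm38.p6) and searched on both strands. Of the 36 genes, 32 had a window, and Atf6, Derl1, Manf and Hyou1 had none. The ER stress response element, CCAAT and CCACG with any 9 bases between them, is a site of Atf6 together with the CCAAT-binding factor NF-Y. It was found in 0.137% of 27025 genes with a window. Matches were present in 8 of 16 folding genes, 1 of 5 ERAD genes, 0 of 3 sensor genes and 0 of 8 genes of the Atf4 arm. The amino acid response element, TGATGNAA, a site of Atf4 with C/EBP factors, was found in 4.51% of genes. Matches were present in 0 of 16 folding genes, in Herpud1 among 5 ERAD genes, and in Asns, Atf3, Chac1 and Trib3 of the 8 genes of the Atf4 arm. The Xbp1 site TGACGTGG, found in 0.714% of genes, matched 0 of the 32 windows. The first pair of lines below shows the 250 bases before the start of Hspa5 (chr2:34771840-34772089, plus strand) and Asns (chr6:7693210-7693459, minus strand), 5′ to 3′ in the direction of the gene, with the fixed letters of the element in capitals.
Hspa5: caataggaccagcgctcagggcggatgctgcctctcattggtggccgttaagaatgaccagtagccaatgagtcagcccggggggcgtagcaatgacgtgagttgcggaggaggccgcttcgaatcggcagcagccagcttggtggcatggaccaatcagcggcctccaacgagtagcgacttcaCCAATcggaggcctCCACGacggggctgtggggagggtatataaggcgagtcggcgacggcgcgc
Asns: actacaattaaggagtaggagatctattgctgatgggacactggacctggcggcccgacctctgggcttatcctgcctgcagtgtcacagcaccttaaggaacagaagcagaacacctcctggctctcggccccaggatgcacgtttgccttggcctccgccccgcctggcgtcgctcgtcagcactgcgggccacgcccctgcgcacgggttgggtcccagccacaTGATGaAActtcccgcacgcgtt
The element of Hspa5 begins 65 bases before the start and that of Asns 23 bases before it. The other ER stress elements follow, to show that 5 fixed bases at each end enclose spacers that differ from gene to gene. Those that read CGTGG and then ATTGG lie on the opposite strand.
Hsp90b1, far site (chr10:86705638-86705656, minus strand): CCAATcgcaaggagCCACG
Hsp90b1, near site (chr10:86705533-86705551, minus strand): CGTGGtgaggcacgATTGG
Calr (chr8:84847075-84847093, minus strand): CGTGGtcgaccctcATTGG
Canx (chr11:50325800-50325818, minus strand): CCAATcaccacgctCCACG
Creld2 (chr15:88819520-88819538, plus strand): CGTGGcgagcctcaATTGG
Dnajc3 (chr14:118937827-118937845, plus strand): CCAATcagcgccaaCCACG
Ero1b (chr13:12565682-12565700, plus strand): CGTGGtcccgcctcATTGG
Pdia6 (chr12:17266491-17266509, plus strand): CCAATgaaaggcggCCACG
Syvn1 (chr19:6046532-6046550, plus strand): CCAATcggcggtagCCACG
The amino acid response elements of Atf3, Chac1 and Herpud1 are shown with 6 bases on either side. These 3 lie on the opposite strand and read TTgCATCA. The match in Trib3 begins 14 bases after the start and is not shown.
Atf3 (chr1:191183430-191183449, minus strand): tcgcacTTgCATCAccaagt
Chac1 (chr2:119351043-119351062, plus strand): ctgccgTTgCATCActcctg
Herpud1 (chr8:94386311-94386330, plus strand): ggcgggTTgCATCAgcccgc
A match describes letters in these windows and is not evidence that a factor bound there in these livers.

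Each array held the RNA of 1 mouse. The deposited values are log2-like and vary very little from mouse to mouse, with a median SD per probe set of 4.98e-06 log2 units and array medians of 6.0387 to 6.0388. Sizes on this scale cannot be read as transcript fold changes. Standardized differences are given instead, the MSE mean minus the normal mean divided by the pooled SD within diets. Beside them stands a count of pairs: every MSE mouse was set against every normal-diet mouse, 64 pairs in all, and those with the lower value in the MSE mouse were counted. Values of single mice are deviations from the 16-mouse mean in thousandths of a log2 unit. The labelled tissue had its markers: all 8 hepatocyte markers lay at the 98.7th percentile of genes by level or higher. In whole liver, fewer cells of a type and less RNA per cell cannot be told apart.

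No gene of the set passed the test for diet, and most had slightly lower means with MSE. By limma, 0 of the 36 genes and 0% of all 18194 genes had an adjusted p under 0.05, the lowest adjusted p over all genes being 0.0868. The 36 genes had adjusted p-values between 0.512 and 0.999. The difference was below 0 in 30 of the 36 genes, against 51.7% of all genes, and the median standardized difference was -0.43 in the set and -0.02 over all genes. At an unadjusted p under 0.05, 3 members were lower, P4hb, Canx and Pdia6, and 0 were higher, beside 4.07% of all genes lower and 2.59% higher. Centring each array on its median added 0.0131 thousandths to every difference, and 25 of the 36 genes were then lower. Over all genes 7.39% were then lower, and their median moved to 0.42. That step changed the split over all genes at this threshold from 741 lower and 471 higher to 73 lower and 157 higher. The median gene had an SD within diets of 0.0056 thousandths, and the median ratio to it was 81.6 in the set. The added amount thus weighs far less on the members, and their count cannot be set against 7.39%. After quantile normalization 21 of the 34 members with any spread were lower, against 50.5% of all genes.

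Among the folding enzymes and chaperones, 17 of 18 had lower means in the MSE group, with a median standardized difference of -0.57. P4hb encodes protein disulfide isomerase, which forms and rearranges disulfide bonds. It lay between -0.007 and 0.119 thousandths in the normal-diet mice, with a median of 0.047, and between -0.136 and 0.039 in the MSE mice, with a median of -0.049. The groups overlapped, and the MSE mouse was lower in 56 of 64 pairs. The standardized difference of P4hb was -1.71, with an exact two-sided permutation p of 0.00482 and a limma adjusted p of 0.512. It has a single probe set, and quantile normalization left it with no spread between mice, so that this setting gave it no value.

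Canx encodes calnexin, a membrane lectin that retains glycoproteins until they are folded. It ranged from -0.008 to 0.033 thousandths around a median of 0.020 on the normal diet, and from -0.047 to 0.042 around -0.032 on MSE. The normal-diet values were tightly grouped, 5 MSE mice lay below all of them and 1 lay above. The MSE mouse was lower in 51 pairs, the standardized difference was -1.26 and the limma adjusted p was 0.680 (exact permutation p = 0.0256). All 3 of its probe sets were lower, but the standardized difference was -0.51 after centring and 0 after quantile normalization.

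Pdia6, another disulfide isomerase, ranged from -0.343 to 3.33 thousandths around 0.594 on the normal diet and from -2.96 to 1.24 around -0.519 on MSE. The groups overlapped, with 5 MSE mice below all normal-diet mice. Its standardized difference was -1.18, in 51 of 64 pairs, with a limma adjusted p of 0.707 (exact permutation p = 0.0345). A second, dimmer probe set did not share the direction, at 0.16.

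Hspa5 encodes BiP, the chief Hsp70 chaperone of the ER and the protein that holds the sensors inactive. It ranged from -1.33 to 1.33 thousandths around 0.071 on the normal diet and from -1.75 to 1.27 around -0.212 on MSE. Both diets held mice at both ends of this range, and the standardized difference was -0.42, in 44 of 64 pairs. The other probe sets of Hspa5, both dimmer, stood at -0.40 and 0.46. Sdf2l1, a partner of the BiP cochaperone Dnajb11, had the widest spread of the 36 genes, from -23.1 to 27.0 thousandths on the normal diet (median 4.52) and from -27.4 to 16.3 on MSE (median -7.42). Its standardized difference was -0.75. Manf, a small secreted protein that binds BiP, ranged from -5.93 to 5.94 around 0.892 and from -6.07 to 4.10 around -0.287, a standardized difference of -0.43. Values of Sdf2l1 and Manf are given because of their association with Hspa5 described below, after their values were seen.

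By their brightest probe sets, the other folding genes had smaller standardized differences than P4hb, Canx and Pdia6. Calr, the soluble partner of calnexin, and Dnajc3, a cochaperone of BiP, had standardized differences of -0.74 each. Pdia4 and Pdia3, further disulfide isomerases, stood at -0.61 and -0.57, and the BiP cochaperone Dnajb11 at -0.63. Hsp90b1, the Hsp90 chaperone of the ER, stood at -0.30 and Hyou1, a nucleotide exchange factor for BiP, at -0.16. The oxidases Ero1a and Ero1b, which supply oxidizing power to disulfide isomerases, stood at -0.45 and -0.27. Creld2 stood at -0.48 and the reductase Dnajc10 at -0.56. Dnajb9, a cochaperone of BiP that represses Ire1, was the exception at 0.02. Dimmer probe sets stood at -1.30 and -1.14 for Ero1a and at -1.23 and -0.47 for Dnajc10. Those of Dnajc3 ran from -1.17 to -0.48. A dimmer probe set stood above 0 for Pdia4 (0.13) and for Hyou1 (0.10).

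**Figure D1:**
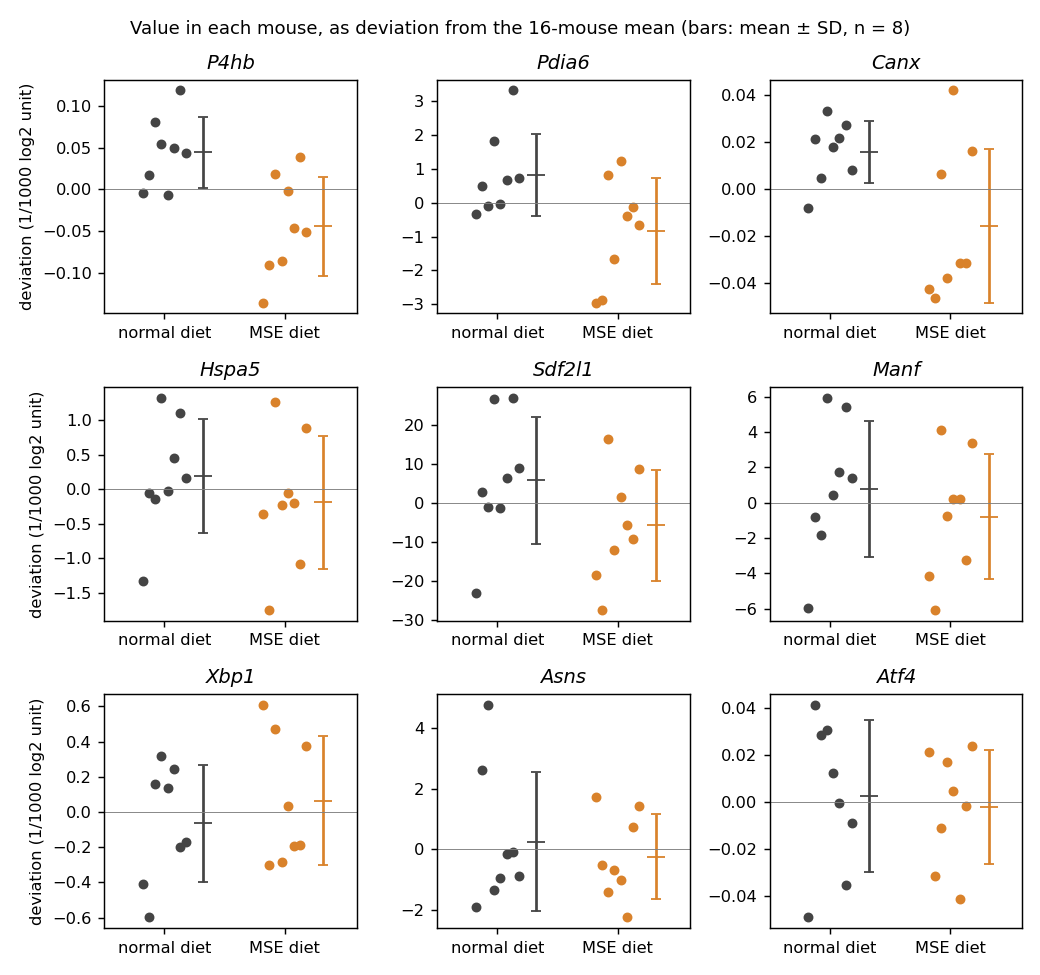
Deviation of 9 genes from their 16-mouse mean, in thousandths of a log2 unit (y axis, its own scale in each panel), for the 8 normal-diet and 8 MSE mice, with bars for mean ± SD. P4hb was lower in the MSE mouse in 56 of 64 pairs, while the diets overlap through most of their range in Hspa5, Manf and Atf4. Xbp1 overlaps in part, from -0.598 to 0.319 on the normal diet and from -0.303 to 0.609 on MSE.

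All 6 ERAD genes had lower means with MSE, at a median standardized difference of -0.37, but 4 after centring and 3 after quantile normalization, where the median was 0.08. Herpud1, a membrane protein that gathers the ERAD complex, ranged from -0.841 to 0.698 thousandths around 0.303 on the normal diet and from -1.82 to 1.34 around -0.281 on MSE. The MSE range enclosed the normal-diet range, and the standardized difference was -0.65, in 45 of 64 pairs. Sel1l, the adaptor of the Hrd1 ubiquitin ligase, ranged from -0.388 to 0.486 around 0.069 and from -0.390 to 0.318 around -0.108. Its lowest values were nearly the same in both diets, and its standardized difference was -0.64. Edem1, which selects misfolded glycoproteins, stood at -0.44, the ligase gene Syvn1 (Hrd1) at -0.30, and the channel-associated Derl2 and Derl1 at -0.29 and -0.15. Dimmer probe sets stood at -1.66 for Edem1 and between -1.43 and -0.06 for Sel1l, and a dimmer probe set of Derl1 at 0.13.

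The sensors did not share a direction. Ern1 ranged from -1.04 to 0.687 thousandths around 0.022 on the normal diet and from -0.518 to 1.43 around -0.019 on MSE. Its standardized difference was 0.51 and the MSE mouse was lower in 26 of 64 pairs. Xbp1 ranged from -0.598 to 0.319 around -0.017 and from -0.303 to 0.609 around -0.075, so that its median was lower and its mean higher with MSE, at 0.37. Its probe sets report the gene and not the spliced form. Atf6 ranged from -0.031 to 0.076 around -0.000023 and from -0.083 to 0.061 around -0.017. Its standardized difference was -0.54, against 0.47 after quantile normalization. Eif2ak3 stood at -0.11. At an unadjusted p under 0.05 there were 0 of the 4.

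In the Atf4 arm, 5 of 8 genes had lower and 3 higher means with MSE. The median standardized difference of the arm was -0.21 as deposited and 0.09 after centring, where the median of all genes was 0.42. Sesn2, which restrains growth signalling when amino acids are short, ranged from -0.002 to 0.019 thousandths around 0.007 on the normal diet and from -0.047 to 0.029 around -0.012 on MSE. The normal-diet values lay in a narrow band, and the MSE values spread to both sides of it. Its standardized difference of -0.86, in 46 of 64 pairs, had a limma adjusted p of 0.806 and came to -0.06 after centring. Chac1, which degrades glutathione, ranged from -0.461 to 0.714 around 0.123 and from -0.720 to 0.950 around -0.165, with a standardized difference of -0.55. The MSE range again enclosed the normal-diet range.

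Atf4 itself ranged from -0.049 to 0.041 thousandths around 0.006 on the normal diet and from -0.042 to 0.024 around 0.002 on MSE. Its standardized difference was -0.16 as deposited and 0.23 after centring, so no direction can be given. Atf4 is controlled largely in translation, which arrays do not measure. Ddit3 ranged from -0.079 to 0.231 around -0.018 and from -0.096 to 0.103 around -0.009, a standardized difference of -0.29. Asns, asparagine synthetase, ranged from -1.92 to 4.77 around -0.528 and from -2.25 to 1.73 around -0.613, with the highest values in normal-diet replicates 2 and 3. Its standardized difference was -0.26, and without normal replicate 3 it was 0.10. Trib3, a pseudokinase that binds Akt, and the stress factor Atf3 stood at 0.25 and 0.28, and Ppp1r15a (Gadd34), which reverses eIF2 alpha phosphorylation, at 0.08.

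**Figure D2:**
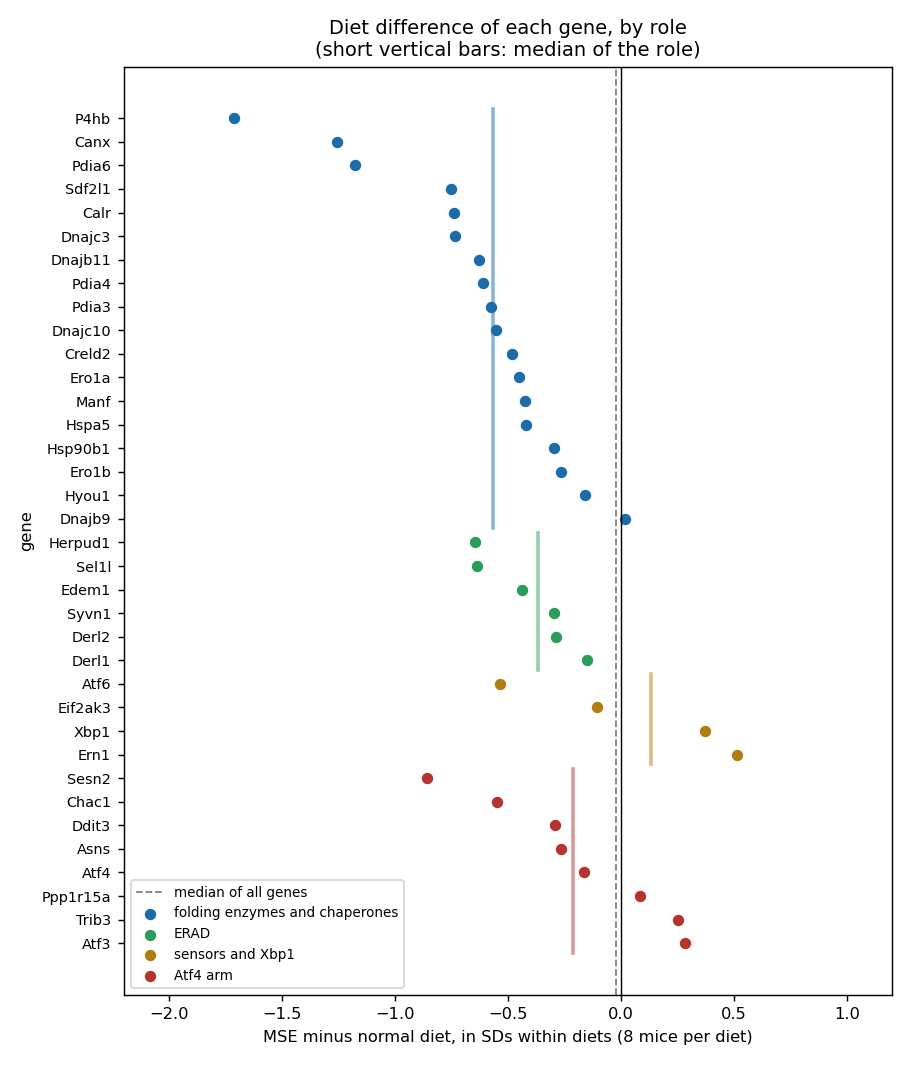
Standardized difference (x axis, MSE minus normal diet in SDs within diets, 8 mice per diet) of each of the 36 genes (y axis), coloured by role, with the median of each role and of all genes. Folding genes centre on -0.57 and the Atf4 arm on -0.21, with overlapping ranges, and 0 of the points passed limma's adjusted test.

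Set beside each other, the folding enzymes ranged from -1.71 to 0.02 and the Atf4 arm from -0.86 to 0.28. The folding median kept its sign under centring (-0.50) and quantile normalization (-0.24), while that of the Atf4 arm was 0.09 and -0.22. Under these settings the median of all genes was 0.42 and -0.01. Centring adds the same amount to every difference, a smaller standardized shift where the spread is wide. The median SD was 9.92 times that of the median gene in the arm and 92.0 times in the folding genes. Neither median can therefore be set against 0.42, and the folding median could move little under centring. The difference between the roles was not tested, since the genes were chosen with results of these data known. The 36 genes had 86 probe sets, and in 23 genes all probe sets were lower. Of the 27 genes with several probe sets, 18 had all of them on the same side.

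Further genes of the same compartments were counted from lists. Of 23 measured genes of translocation and glycosylation, 20 were lower, 12 of them at an unadjusted p under 0.05, beside the 4.07% of all genes. The counts depended on scaling, with 15 lower after centring, 3 of them at that threshold. After quantile normalization 4 were lower and 19 higher, with 0 and 3 at that threshold. Those with the smallest p were Ssr4 (-1.67) and Ssr3 (-1.58), subunits of the translocon-associated complex, and the signal peptidase subunit Sec11c (-1.58). After centring these stood at 0.0086, -0.93 and -1.23, and after quantile normalization at -0.13, 0.25 and 0.39. Of 24 other folding and ERAD genes, 22 were lower, 7 of them at an unadjusted p under 0.05, against 14 lower after centring, 2 of them at that threshold. After quantile normalization 8 were lower and 15 higher, with 0 and 2 at that threshold. The thiol oxidoreductase Erp44 stood at -1.95, Erp29 at -1.81 and the lectin Os9 at -1.60. After centring they came to -0.34, -0.93 and 0.22, and all 3 were above 0 after quantile normalization (0.33, 0.26 and 0.077).

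Of 24 other Atf4 targets, 14 were lower and 10 higher as deposited, and 3 lower and 21 higher after centring, or 12.5% lower beside 7.39% of all genes. Their median SD was 2.15 times that of the median gene, so these shares depend on spread as well. After quantile normalization 10 were lower and 13 higher, beside 50.5% of all genes lower. As deposited, 2 were higher and 0 lower at an unadjusted p under 0.05, beside 2.59% of all genes higher. These were Fgf21, a fasting and stress hormone, at 1.24 (limma adjusted p = 0.685) and the factor Atf5 at 1.06, which stood at 0.086 after quantile normalization. Wars, a tRNA synthetase, stood at -0.80. Of 11 kinases and factors, 7 were lower, 2 of them at an unadjusted p under 0.05, beside 4.07% of all genes. These were Eif2ak1, the haem-regulated eIF2 alpha kinase, at -2.31 in 61 of 64 pairs, and Eif2ak4, the amino acid sensor Gcn2, at -1.20. Eif2ak1 had a limma adjusted p of 0.323 and came to 0.20 after centring, where Eif2ak4 came to 0.053. After quantile normalization Eif2ak1 stood at -0.42 and Eif2ak4 at 0.73. Of the 11 genes, 2 were lower after centring and 5 after quantile normalization, beside 7.39% and 50.5% of all genes. Mbtps2, a protease that releases Atf6, stood at -0.57.

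For every probe set the authors' deposited table estimates a false discovery rate in either direction, by a test that is not given in the sources used here. In the authors' deposited table, 23 of the 36 genes had a rate under 0.05 for lower values with MSE, beside 3.76% of all genes. By role these were 16 of 18 folding genes, 4 of 6 ERAD genes, 0 of 4 sensor genes and 3 of 8 genes of the Atf4 arm. For higher values with MSE the authors' deposited table has 5 such members, beside 2.52% of all genes: Dnajb9, Xbp1, Ern1, Trib3 and Asns. By the authors' deposited table, Dnajb9, Trib3 and Asns were under 0.05 both ways. Of the 23 genes, 20 were among the 5% of genes with the widest spread between mice, as were 3 of the other 13.

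Many of these genes varied more between mice than most genes. The SD within diets was in the top 5% of all genes for 23 of the 36 genes: 14 of 18 folding genes, 3 of 6 ERAD genes, 3 of 4 sensor genes and 3 of 8 genes of the Atf4 arm. Other lists were spread as well: 4 of 23 genes of translocation and glycosylation, 5 of 24 other folding and ERAD genes and 7 of 24 other Atf4 targets were in the top 5%. Relative to the median gene, whose SD was 0.0056 thousandths, the median ratio was 92.0 for folding genes, 31.3 for ERAD genes, 47.9 for sensor genes and 9.92 for the Atf4 arm. Spread rose with level across genes (Spearman rho 0.45 over 18194 genes, which are not independent replicates), and the folding genes are highly expressed, at a median level percentile of 94.5. Of the 1820 genes above the 90th percentile by level, 15.8% were in the top 5% by spread, as were 12 of the 18 members among them. Below that level, 11 of 18 members were in the top 5% by spread, which holds 5% of genes over all levels.

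Part of the folding and ERAD genes rose and fell together between mice, within both diets, and 0 of the 8 genes of the Atf4 arm passed the same test. A limma fit with diet and the Hspa5 value as terms was run over all 18193 other genes. This comparison was chosen after the data were seen. At an adjusted p under 0.05, 25 genes rose with Hspa5, 0.137% of those tested, and 0 fell, with 556 rising and 420 falling at an unadjusted p under 0.05. Of these 25 genes, 11 were among the 35 other members: 8 of 17 folding genes, 3 of 6 ERAD genes, 0 of 4 sensor genes and 0 of 8 genes of the Atf4 arm.

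Manf followed Hspa5 most closely, with a Pearson r of 0.96 over 16 mice after removal of diet means, Spearman's rho of 0.95 and a limma adjusted p of 1.31e-04. Sdf2l1 followed at r of 0.94 (adjusted p = 0.00115). Creld2, Syvn1, Sel1l and Ero1b had r between 0.91 and 0.92, each with an adjusted p of 0.00281. Hsp90b1 (r = 0.91, adjusted p = 0.00376), Hyou1 (0.90, 0.00610), Dnajb11 (0.89, 0.00618), Edem1 (0.89, 0.00731) and Pdia4 (0.85, 0.0318) also rose. Over the 11 genes, the permutation p of r within diets lay between 1e-05, the smallest that 100000 permutations can give, and 0.000140. Spearman's rho lay between 0.75 and 0.95 with permutation p between 1e-05 and 0.00165. Within diets, r ran from 0.90 to 0.99 in the 8 normal-diet mice and from 0.76 to 0.94 in the 8 MSE mice. Leaving out the 2 mice farthest from the median of Hspa5 gave r from 0.79 to 0.93. The 11 genes were chosen by this association in the same mice, so these values describe them and are no further test.

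The same mice stood at the top in all 11 genes. In Hspa5 and in each of them, the 4 highest mice relative to their diet mean were normal-diet replicates 4 and 7 and MSE replicates 3 and 8. The 2 lowest mice in Hspa5, normal replicate 1 and MSE replicate 2, were also the 2 lowest in 7 of the 11. Shared extremes follow in part from that choice. Without normal replicate 1, or without MSE replicate 3, 7 members rose, all of them among the 11. Without any other single mouse the count was 10 to 12. After quantile normalization 7 members rose, of which 1 was among the 11 and 1 belonged to the Atf4 arm, but so did 1704 genes. In that setting Hspa5 took 4 distinct values over the 16 mice and correlated with its deposited values at r of 0.28.

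**Figure D3:**
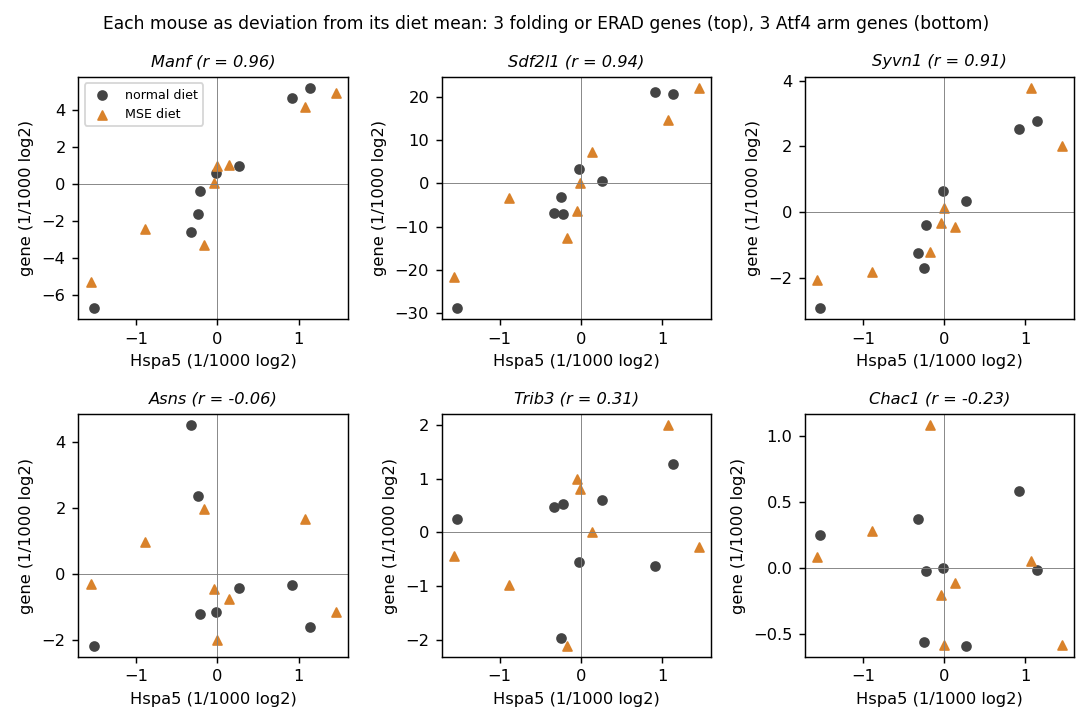
Each point is 1 mouse, as deviation from its diet mean in thousandths of a log2 unit, for Hspa5 (x axis) and another gene (y axis). Manf, Sdf2l1 and Syvn1 rise with Hspa5 in both diets (r of 0.96, 0.94 and 0.91), and Asns, Trib3 and Chac1 have r of -0.06, 0.31 and -0.23.

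The remaining folding genes were spread from Pdia3 (r = 0.82, adjusted p = 0.0787) and Dnajc3 (r = 0.78) down to P4hb and Ero1a (0.41 each) and Dnajc10 (-0.04). P4hb, the member with the largest diet difference, was not among the genes that rose with Hspa5. Dnajc10 had r of 0.83 in the normal-diet mice and -0.55 in the MSE mice. The median r was 0.82 over the 17 folding genes and 0.74 over the ERAD genes, with Herpud1 lowest at 0.50. Over the 4 sensor genes it was 0.65, from 0.46 for Ern1 to 0.72 for Atf6, and 3 of the 4 had an unadjusted p under 0.05. Over all genes the median r was -0.02, and the 5th and 95th percentiles were -0.44 and 0.44.

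All 8 genes of the Atf4 arm lay inside that range. Their r with Hspa5 ran from -0.23 for Chac1 to 0.31 for Atf4, with a median of 0.16, and 0 had an unadjusted p under 0.05. Chac1 and Asns had the only negative values, -0.23 and -0.06, in the arm. Whether folding genes and the Atf4 arm differ in this association was not tested.

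**Figure D4:**
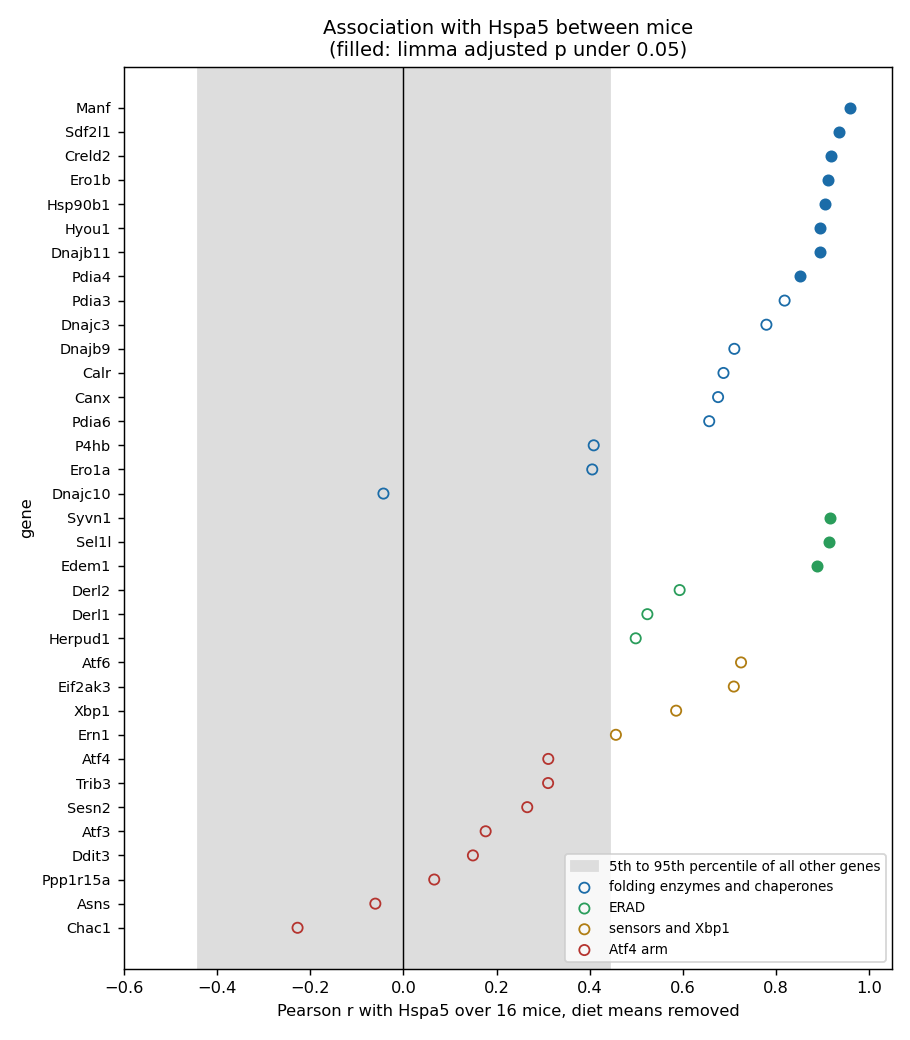
Pearson r with Hspa5 over 16 mice after removal of diet means (x axis) for the 35 other genes (y axis), coloured by role, filled where limma's adjusted p was under 0.05. The 11 filled points are folding and ERAD genes at 0.85 and above, and the 8 genes of the Atf4 arm lie within the grey band from -0.44 to 0.44 that holds the 5th to 95th percentile of all other genes.

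Correlations within the Atf4 arm were low in most pairs. Over its 28 pairs of genes the median r between mice was 0.01, from -0.46 to 0.64, against 0.75 over the 153 pairs of folding genes, 0.48 over the 15 ERAD pairs and 0.60 over the 108 pairs of a folding and an ERAD gene. Folding genes paired with the Atf4 arm had a median r of 0.05 over 144 pairs. Levels differed as well, with a median level percentile of 59.9 in the arm and 94.5 in the folding genes. Atf3 and Asns were lowest in the arm, at 34.7 and 34.8. The part of level in these correlations was not tested. Within the arm, Atf4 had its highest r with Ppp1r15a (0.64), Asns (0.61) and Atf3 (0.52). A limma fit with Atf4 in place of Hspa5, also chosen after the data were seen, called 0 of 18193 genes (0%) in either direction, with 1293 at an unadjusted p under 0.05. Those 3 genes were the members at an unadjusted p under 0.05 (0.00871, 0.0121 and 0.0390), with adjusted p-values of 0.600, 0.605 and 0.670. The Atf4 probe set used here had an SD within diets of 0.0287 thousandths, against 0.320 for another, dimmer one. The fit was not repeated with that probe set.

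**Figure D5:**
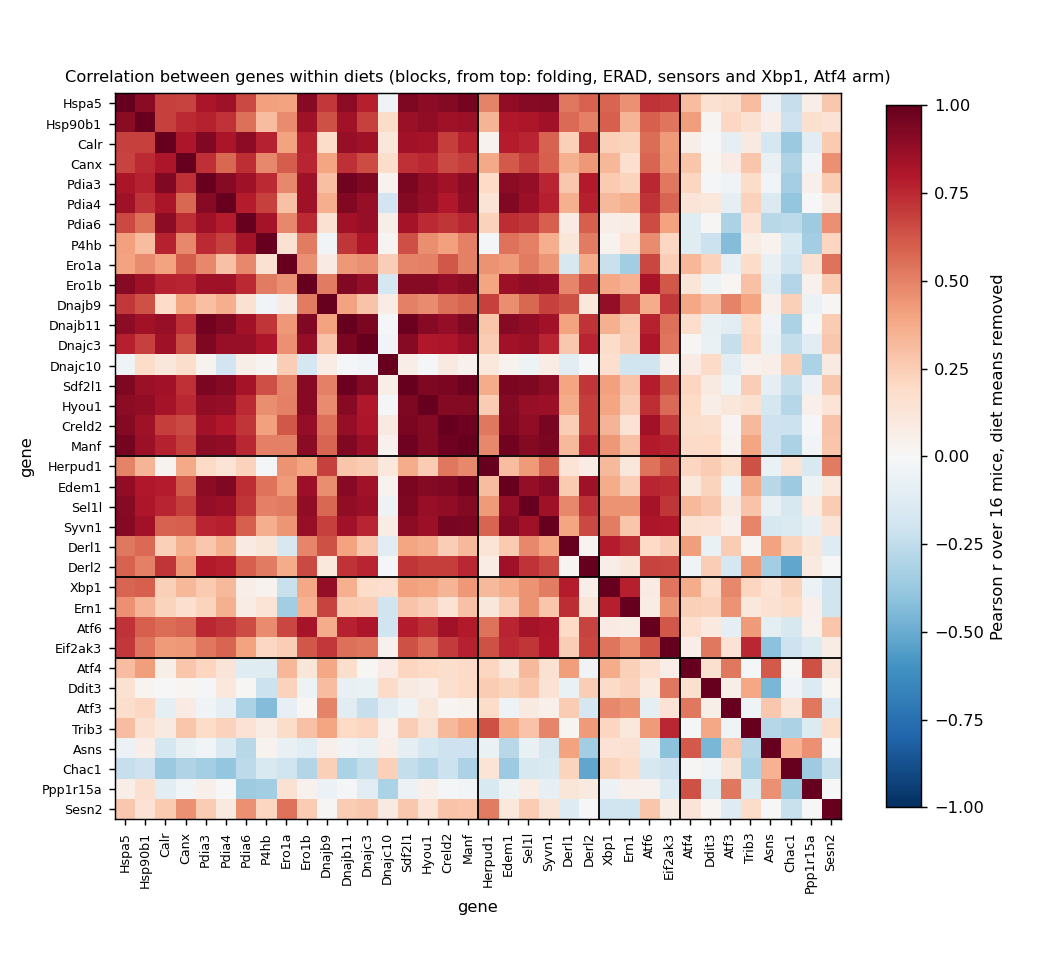
Pearson r over 16 mice after removal of diet means for every pair of the 36 genes (both axes, grouped by role, colour scale from -1 to 1). Most folding and ERAD genes form a dark block (median r of 0.75 among folding genes), while pairs within the Atf4 arm have a median of 0.01.

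Genes that rose with Hspa5 were found both with and without the promoter element. Of the 8 genes other than Hspa5 with an ER stress element in the window, 4 rose with Hspa5: Creld2, Ero1b, Hsp90b1 and Syvn1. Calr, Canx, Dnajc3 and Pdia6 hold the element as well and had r between 0.66 and 0.78, without passing the adjusted test. Of 12 folding and ERAD genes with a window but no element, 5 rose: Pdia4, Dnajb11, Sdf2l1, Edem1 and Sel1l. Manf and Hyou1 rose as well.

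Measures of RNA and of cell makeup were set against Hspa5 in the same way, 10 in all. The largest was the B and plasma cell marker score, a mean of 7 measured genes of 8 listed, with r of -0.64, rho of -0.52, a permutation p of 0.00798 and 0.0798 after Benjamini-Hochberg adjustment. Plasma cells are rich in ER chaperones. The score was lower in mice with higher Hspa5, and 1 of its 7 genes, Sdc1, lay above the median level of all genes. The score lay between -1.02 and 0.843 on the normal diet and between -0.468 and 0.437 on MSE. Its part in the association was not tested. The other measures, among them hepatocyte (0.25), macrophage (-0.32) and exocrine pancreas (0.16, but -0.74 within the normal diet and 0.57 within MSE) markers and the 3′ minus 5′ control signals of Actb (-0.03) and Gapdh (0.21), had r between -0.32 and 0.25. The 8 hepatocyte markers varied little, at a median SD of 0.138 times that of the median gene. Quantile normalization left 0 of them with any spread, so the hepatocyte score could show little. The array median had r of -0.06 over all mice, -0.84 within the normal diet and 0.18 within MSE. All 11 genes still rose with Hspa5 after centring on it, a step that could change little. The array medians ran from 6.0387 to 6.0388, and the SD of Hspa5 within diets was 0.898 thousandths. The part of the array median in the association was not tested. For diet, the 7 neutrophil and 8 macrophage markers measured were all lower with MSE as deposited, 0 of them at an unadjusted p under 0.05, but 2 of 7 and 5 of 8 were lower after centring. Over all genes 51.7% were lower as deposited and 7.39% after centring. The part of these markers in the lower means of the folding genes was not tested.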

How the data were processed

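Per the labels' protocols, liver was preserved in RNAlater, and RNA was extracted with TRIzol, purified on columns with DNase, and labelled with biotin by 3′ in vitro transcription. The authors deposited log2-like values for 45101 probe sets on 16 arrays, from 5.05 to 14.6. The log base is inferred from this range. The submitters' processing notes name R 3.2.2, and no normalization is given in the sources used here. Both deposited value tables held the same values within each diet (largest difference 0). The authors' deposited table also holds a false discovery rate score for each direction, some above 1, used only as theirs.

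Of the probe sets, 34958 named 1 gene and 34754 of these matched a reference gene ID. A further 932 named several genes and were not used, and 9211 were unlisted. The brightest probe set stood for each of 18194 genes. The diet comparison used limma 3.58.1 (R 4.3.3; lmFit, then eBayes; two-sided; Benjamini-Hochberg over all genes; threshold 0.05) without covariates. Single genes also had an exact two-sided permutation test over 12870 regroupings. Correlations used diet-centred values and 100000 permutations within diets (Python 3.11.15, NumPy 2.4.6, SciPy 1.17.1), and figures matplotlib 3.10.9. The diet fit, and a fit with a random covariate in the place of Hspa5, were tested on simulated data with independent genes. Diet shifts of 1, 2, 3 and 4 SD were recovered in 2%, 30.4%, 82.8% and 98.4% of genes, and 5.74% of calls were false. A shift of 1 SD, larger than in most members, would thus mostly be missed. With a covariate effect of 2 SD, 80.6% were recovered.

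The members, the lists and the tests were chosen with earlier results of these data known, so their directions are no independent evidence. Full values are given for members at an unadjusted p under 0.05, for the 2 members of each role with the smallest p, and for Hspa5, Xbp1, Atf4 and Ddit3. Of other lists, up to 3 genes with the smallest p are named. Alternatives comprised centring on array medians, quantile normalization, a replicate block, array weights, robust estimation with an intensity trend, averaging a gene's probe sets, a filter on level, an adjusted p threshold of 0.1, and leaving out each mouse. The labels call the mice biological replicates. Arrays give no counts, so the number of mice limits the precision. Coordinates are given only for promoter windows, since the platform annotation names no build.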

Additional observations from a re-analysis of the deposited data

Results flagged for a closer look

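In each of the 72 groups of 8 mice (36 genes in 2 diets), the gap between the most extreme mouse and its neighbour was divided by the group's range, and 4 exceeded Dixon's 95% critical value. Chance gives about 1 in 20. Pdia3 was low in normal replicate 1, with a ratio of 0.560. That mouse was also the lowest normal-diet mouse in Hspa5, Manf, Sdf2l1, Creld2, Syvn1 and Sel1l, among others. In the Atf4 arm it was the lowest in Atf4, Asns and Ppp1r15a, but not in Ddit3, Atf3, Trib3, Chac1 or Sesn2. Herpud1 was low in normal replicate 2 (0.683), Derl2 was low in MSE replicate 1 (0.534) and Atf3 was high in normal replicate 5 (0.631).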

How the results depend on the processing

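Over all genes, 0 were called for diet as deposited, 3 after quantile normalization, 1 each with the replicate block, among genes above the median level and at an adjusted p under 0.1, and 0 to 2 when 1 mouse was left out (2 without normal replicate 2, 1 without MSE replicate 7). Members at an unadjusted p under 0.05 numbered 3 as deposited, 0 after quantile normalization, 6 with the mean of all probe sets (Ero1a, Atf6 and Sesn2 added) and 2 to 5 without 1 mouse (5 without normal replicate 1). Members lower with MSE stayed between 28 and 32 without 1 mouse.

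Members rising with Hspa5 numbered 11 as deposited, 7 after quantile normalization, 0 with the replicate block and 7 to 12 without 1 mouse. The replicate numbers were not shown to pair the mice, since same-numbered deviations correlated at -0.0262 to 0.218. The replicate block leaves 6 residual degrees of freedom in place of 13. All 11 genes had an unadjusted p under 0.05 in it, with r within numbers from 0.886 to 0.980. It changed no call of a member for diet.

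Signs of single genes changed in 15 of 213 values under other settings (12 genes). Quantile normalization gave Pdia3 0.13, Ero1b 0.024, Dnajc10 0.15, Hyou1 0.062, Edem1 0.42, Derl1 0.95, Derl2 0.37, Atf6 0.47 and Ppp1r15a -0.45. Centring gave Ero1a 0.29, Dnajc10 0.32, Derl1 0.24, Derl2 0.20 and Atf4 0.23, and array weights gave Dnajb9 -0.18. Leaving out 1 mouse changed the sign in 27 of 576 values (9 genes), with ranges of -0.44 to 0.10 for Asns, -0.47 to 0.033 for Atf4, -0.52 to 0.13 for Ddit3, -0.46 to 0.071 for Derl1, -0.63 to 0.044 for Derl2, -0.22 to 0.26 for Dnajb9, -0.48 to 0.13 for Eif2ak3, -0.44 to 0.027 for Hyou1 and -0.14 to 0.51 for Ppp1r15a. The causes of these changes were not tested. Quantile normalization left 1466 genes, P4hb and Xbp1 among them, with no spread between mice and so with no value, and Canx had a difference of 0.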

Other observations

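Besides the 11 members, 14 genes rose with Hspa5 between mice at a limma adjusted p under 0.05, named here after their values were seen. Their known roles are given as background, and no enrichment was tested. In the lists used above, 2 of 23 genes of translocation and glycosylation and 1 of 24 other folding and ERAD genes rose. Hspa13 is an Hsp70 family member of microsomes (r = 0.90), Stt3a (0.86) and Stt3b (0.84) are the catalytic subunits of oligosaccharyltransferase, and Atp2a2 is the calcium pump of the ER (0.89). Selenos (0.83) takes part in ERAD, Wfs1 (0.84) is an ER membrane protein that is mutated in Wolfram syndrome, and Piga (0.84) begins the synthesis of GPI anchors. Stx5a (0.85) and Arf4 (0.84) act in transport between the ER and the Golgi, and Osbp (0.87) moves sterols between their membranes. The other four were Ythdf1 (0.92), Ubfd1 (0.89), Morf4l2 (0.88) and 1810014B01Rik (0.86). None had an unadjusted p under 0.05 for diet, and the standardized diet differences of Selenos and Atp2a2 were -1.01 and 0.03.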
